A study of Mus musculus with 6 samples.

Results

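Messenger RNA of 51 genes for ribosome assembly factors and nucleolar proteins was compared between wild-type and Mettl5-/- mouse brains. The genes were taken by symbol from the deposited table, which lists 18491 genes, and all 51 were found. By the known role of their products they formed 34 small-subunit factors, 12 large-subunit factors, the abundant nucleolar proteins Ncl and Npm1, and 3 genes of RNA polymerase I (Pol I) transcription. Both groups were brain samples taken at postnatal day 28 from mice of the inbred strain C57BL/6N. There were 3 libraries from wild-type mice and 3 from Mettl5-/- mice, called knockout below, and no treatment is named for either group. The labels give neither the design of the allele nor whether each library came from 1 animal, so the p-values reflect no more than how far these samples spread, and that spread may be technical. Coordinates are on the mm10 build (GRCm38).

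Ribosomes are assembled mainly in the nucleolus, where Pol I transcribes a long precursor of the ribosomal RNAs. The small-subunit processome, a large complex built around a small nucleolar RNA, folds and cuts the small-subunit part of this precursor, while another set of factors builds the large subunit. Both particles are then exported and finished in the cytoplasm. Neurons are known for prominent nucleoli. Mettl5, together with its partner Trmt112, methylates an adenosine of the small-subunit ribosomal RNA, so the comparison asks whether the transcripts of the assembly machinery differed where this methyltransferase gene was disrupted. The libraries were made from poly(A) RNA, and neither ribosomal RNA nor assembled ribosomes were measured.

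Mettl5 itself was lower in the knockout libraries but was still read. Wild-type libraries 1, 2 and 3 had 4.78, 5.16 and 5.92 FPKM (fragment counts scaled by transcript length and by the library's mapped fragments), and knockout libraries 1, 2 and 3 had 2.79, 3.81 and 2.40 FPKM. The groups did not overlap, and a 2-sided exact permutation test gave p = 0.1, the smallest this design of 3 against 3 allows. The limma adjusted p over all genes was 0.79. Trmt112 had a log2 fold change of -0.07 (SE 0.12), with overlapping groups.

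The libraries differed in markers of brain cell types. Knockout library 2 stood apart in granule cell markers, and all 3 knockout libraries, library 3 most, were below the wild type in oligodendrocyte markers. The 6 cerebellar granule cell markers, all tested, summed to 27.4 to 51.3 FPKM in the wild type, to 40.7 and 24.4 FPKM in knockout libraries 1 and 3, and to 430 FPKM in knockout library 2. Gabra6, a receptor subunit of granule cells, had 86.25 FPKM in knockout library 2 and 0.08, 4.77, 0.03, 0.16 and 0.21 FPKM in wild-type libraries 1, 2 and 3 and knockout libraries 1 and 3. The 8 oligodendrocyte markers summed to 6298 to 7538 FPKM in the wild type and to 5219, 5591 and 2075 FPKM in knockout libraries 1, 2 and 3. Thus knockout library 2 had far more granule cell marker than the others. Every knockout sum of oligodendrocyte markers was below the wild-type range, and knockout library 3 had the lowest. All 8 oligodendrocyte markers were lower in the knockout without overlap, where 6.43% of all genes tested were. Their median log2 fold change was -0.76, and 0 passed adjustment in limma. The 8 neuron markers summed to 3016 to 3167 FPKM in the wild type and to 3008 to 3075 FPKM in the knockout. Without Snap25, their most abundant, they summed to 1749 to 1794 and to 1621 to 1887 FPKM. The 6 astrocyte markers summed to 715 to 780 FPKM in the wild type. In knockout libraries 1, 2 and 3 they summed to 604, 920 and 646.5 FPKM. Without Aldoc, their most abundant, the astrocyte sums were 309 to 375 FPKM in the wild type and 290, 389 and 320 FPKM in the knockout. Single genes within these sums differed. Without overlap, Rbfox3 was higher and Nefl lower among neuron markers, and Gfap and Gja1 were lower among astrocyte markers. The astrocyte marker Slc1a3 had a log2 fold change of 0.33 with overlapping groups. Over all genes tested, 5.48% were higher and 6.43% lower without overlap. The 6 microglia markers ranged from 74.7 to 101 and from 64.1 to 91.4 FPKM, and the 5 choroid plexus markers from 371 to 535 and from 255 to 446 FPKM. Without their most abundant gene, the choroid plexus markers summed to 10.7 to 12.9 and to 6.92 to 11.2 FPKM. In a bulk tissue sample, fewer cells of a type and less RNA per cell cannot be told apart. The 5 oligodendrocyte precursor markers ranged from 47.1 to 61.1 and from 42.4 to 48.0 FPKM, and the 5 endothelial markers from 47.6 to 55.3 and from 51.7 to 59.2 FPKM. The 4 blood markers ranged from 39.9 to 2283 and from 7.90 to 458 FPKM and were lowest in library 1 of each genotype. Of 6 proliferation genes, Mki67, Top2a, Cdk1 and Ccnb1 had means of 0.252, 0.370, 0.127 and 0.287 FPKM, below the level tested. The other 2, Birc5 and Pcna, were tested. Their means ranged from 1.18 to 29.8 FPKM and their log2 fold changes from -0.067 to 0.018. The part of these differences in the members' values was not tested, and the median log2 fold change of the members was 0.029 without knockout library 2 and 0.043 without knockout library 3.

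**Figure D1:**
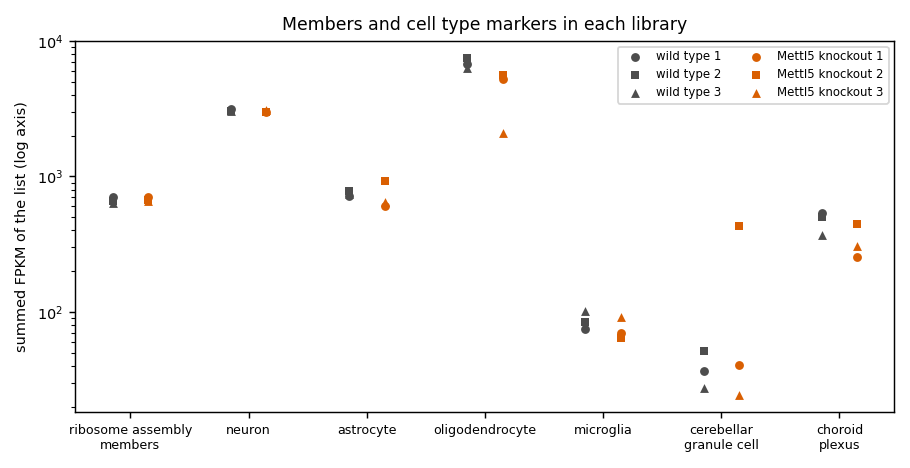
Summed FPKM (log axis) of the 51 ribosome assembly and nucleolar genes and of 6 lists of cell type markers, 1 point per library; grey points are wild type, orange points are knockout, and the shape gives the library number. The members lay between 637.5 and 707.7 FPKM in all 6 libraries, while the granule cell markers reached 430 FPKM in knockout library 2 alone.

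As a set, the assembly genes were expressed at middling levels, and their total lay between 637.5 and 707.7 FPKM in every library. Their summed level was 707.7, 662.8 and 637.5 FPKM in wild-type libraries 1, 2 and 3 and 702.2, 670.8 and 661.0 FPKM in knockout libraries 1, 2 and 3. These knockout sums lay within the wild-type range. Their shares of each library's summed FPKM were 0.190%, 0.176% and 0.180% in wild-type libraries 1, 2 and 3. In knockout libraries 1, 2 and 3 the shares were 0.191%, 0.184% and 0.188%. By share, knockout library 1 lay above the wild-type range, and each knockout library was above the wild-type library of its number. Without Npm1, whose level is uncertain because of its genomic copies, the sums were 576.3, 557.9 and 536.0 FPKM in the wild type and 582.8, 569.1 and 561.9 FPKM in the knockout. There knockout library 1 lay above the wild-type range, and each knockout library was above the wild-type library of its number. All 51 genes reached the mean of 1 FPKM required for testing. The median member had a mean of 9.07 FPKM over the 6 libraries, against 10.9 FPKM for all 12885 genes tested. FPKM is scaled by transcript length, so levels can be compared between genes. Npm1, nucleophosmin, was the most abundant at 110 FPKM, followed by Sbds, Ncl, Nol6, Gnl2, Ubtf and Imp3 (38.3, 32.6, 30.9, 26.5, 26.1 and 21.7 FPKM). The lowest were the very long factors Utp20 and Mdn1 (2.44 and 2.62 FPKM), then Heatr1 (3.37 FPKM) and Nle1 (3.95 FPKM). The coefficient of variation within a genotype had a median of 7.53% in the wild type and 7.34% in the knockout, below the 10.5% and 10.8% of all genes tested.

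Promoter sequence was examined because Myc and related factors bind the E-box CACGTG, a palindrome that reads the same on both strands. Of the 51 members, 39 matched a promoter in the RefSeq table (GRCm38.p6; 250 bases before to 50 after a start site). An E-box stood in 11 of the 39, or 28.2%, against 11.7% of 10296 genes tested that have a promoter there and 8.09% of all genes in the table. The 11 were Imp4, Ltv1, Mdn1, Nle1, Nmd3, Nol11, Pes1, Tsr1, Utp18, Utp20 and Wdr43. The ETS motif CCGGAAG, sought on both strands, stood in 11 of 39 members against 19.0% of genes tested, the GC box GGGCGG in 66.7% against 69.2%, and CCAAT in 43.6% against 42.9%. The E-box lay before the start site in Imp4, Nmd3, Utp18 and Nol11, and these are shown to place it, with the E-box in capitals, each 5′ to 3′ on the strand of its gene and ending before the start site.
Imp4: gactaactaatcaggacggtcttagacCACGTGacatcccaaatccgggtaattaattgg
Nmd3: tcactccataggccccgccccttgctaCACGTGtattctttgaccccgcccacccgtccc
Utp18: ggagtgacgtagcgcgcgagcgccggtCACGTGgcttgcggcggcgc
Nol11: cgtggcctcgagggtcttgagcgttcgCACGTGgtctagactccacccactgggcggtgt

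These windows are at chr1:34439681-34439740 (plus strand), chr3:69721914-69721973 (plus), chr11:93885767-93885813 (minus) and chr11:107189392-107189451 (minus). The E-box began 121, 114, 20 and 43 bases before the start site. A match is a description of these letters and shows no binding.

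No member passed the test between genotypes. In limma with Benjamini-Hochberg adjustment over 12885 genes, the lowest adjusted p of a member was 0.79, and 0% of all genes passed. At an unadjusted p under 0.05 there was 1 member, Gnl2, higher in the knockout, where 6.05% of all genes tested reached that level, 2.37% higher and 3.69% lower. With every library rescaled to a common FPKM sum, the genes at that level divided into 430 higher and 377 lower, against 305 and 475 without it. Of the 51 log2 fold changes, 28 were above 0 and 23 below, or 54.9% above, against 49.1% of all genes tested. Their median was 0.021, against -0.0032 over all genes tested. They ranged from -0.31 for Heatr1 to 0.32 for Gnl2 on log2(FPKM + 1). The 95% confidence interval lay between -0.5 and 0.5 for 46 of the 51 members, against 71.5% of all genes tested. The other 5 were Heatr1, Rcl1, Gnl2, Gnl3 and Nle1, and for all 51 it lay between -1 and 1. A doubling of any of these transcripts lay outside its interval.

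**Figure D2:**
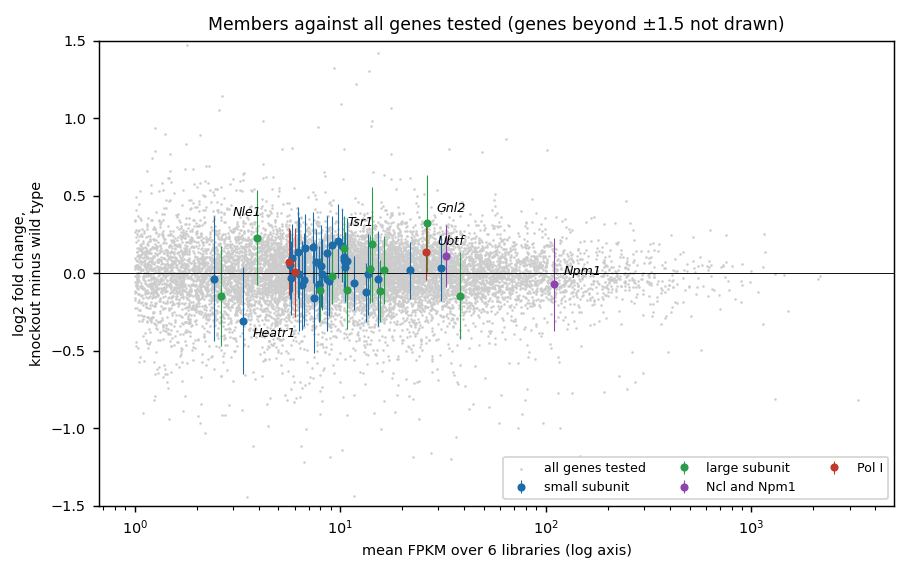
Log2 fold change (knockout minus wild type, on log2(FPKM + 1)) against mean FPKM over 6 libraries (log axis) for the genes tested in grey (differences beyond 1.5 either way are not drawn) and the members in colour by role, with 95% confidence intervals as bars. The members sit between -0.31 and 0.32, within the grey cloud.

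The 3 wild-type and 3 knockout values were fully separated in 9 members, 17.6% of members against 11.9% of all genes tested. Nol11, Utp14a, Tsr1, Nmd3 and Ubtf were higher without overlap, where 5.48% of all genes were, and Wdr75, Utp6, Ltv1 and Rrs1 were lower, where 6.43% of all genes were. This split depended on scaling. On the common FPKM sum, 10 members were higher and 0 lower without overlap, against 7.47% and 5.25% of all genes. Same-numbered libraries of the genotypes deviated together, so they were also compared as pairs. In 17 members the knockout value was higher in all 3 pairs and in 9 it was lower, against 19.5% and 20.5% of all genes tested, together 40%. With the library number as a block in the limma fit, 5 members had an unadjusted p under 0.05, which is 9.8% of members against 14.3% of all genes tested. Gnl2, Tsr1, Nol11 and Nle1 were on the higher side, where 6.08% of all genes were, and Heatr1 on the lower side, where 8.22% were. None passed adjustment in that fit either, the lowest adjusted p of a member being 0.29 with the block.

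**Figure D3:**
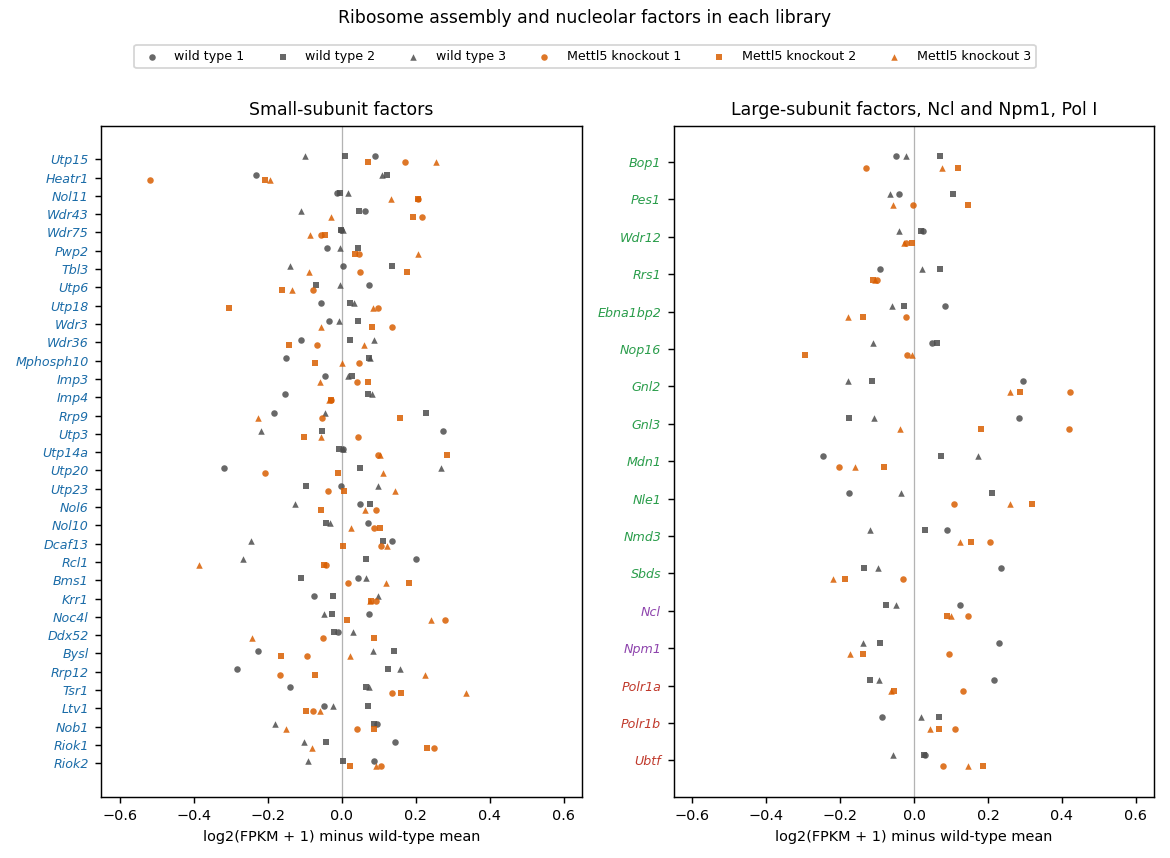
Each library's distance from the wild-type mean of the gene, on log2(FPKM + 1), for all 51 members, with small-subunit factors on the left and the rest on the right; grey is wild type, orange is knockout, shape gives the library number, and gene names are coloured blue for small-subunit, green for large-subunit, purple for Ncl and Npm1 and red for Pol I. Most rows show overlapping grey and orange points, and Nol11, Utp14a, Tsr1, Nmd3 and Ubtf are among the 9 that do not.

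Among the small-subunit factors, 18 of 34 log2 fold changes were above 0, their median was 0.026, and 0 reached an unadjusted p under 0.05. Their subcomplexes are given broadly in the order in which they act. The UTP-A subcomplex binds first and in yeast and human cells is also tied to Pol I transcription. Its 5 genes here went both ways. Nol11, a UTP-A subunit (chr11:107166651-107189381), had 8.35, 8.40 and 8.55 FPKM in wild-type libraries 1, 2 and 3 and 9.89, 9.89 and 9.34 FPKM in knockout libraries 1, 2 and 3. All knockout values exceeded all wild-type values, the log2 fold change was 0.18 (SE 0.08), and the limma adjusted p was 0.79. Heatr1, the largest UTP-A subunit (chr13:12395375-12438893), had 3.09, 4.23 and 4.18 FPKM in wild-type libraries and 2.35, 3.16 and 3.20 FPKM in knockout libraries in the same order. Library 1 was the lowest of its genotype in both groups, and the groups overlapped through wild-type library 1. The log2 fold change was -0.31 (SE 0.15), with a limma adjusted p of 0.79, and it was -0.20 without knockout library 1, its lowest. In same-numbered pairs 1, 2 and 3 the knockout differed by -0.29, -0.33 and -0.30. Without wild-type library 1, Heatr1 reached an unadjusted limma p under 0.05, and the lowest adjusted p of a member there was 0.47. Utp15, Wdr43 and Wdr75, the other UTP-A genes listed, had log2 fold changes of 0.17, 0.13 and -0.06. Wdr75 had the tightest wild-type values of these, 11.84, 11.85 and 11.90 FPKM against 11.37, 11.46 and 11.13 FPKM.

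The UTP-B subcomplex, a set of WD-repeat and related proteins, contributed Pwp2, Tbl3, Utp6, Utp18, Wdr3 and Wdr36, with 3 above and 3 below 0 and log2 fold changes between -0.12 and 0.10. Utp6 had 14.7, 13.2 and 13.9 FPKM in the wild type and 13.1, 12.3 and 12.6 FPKM in the knockout, which did not overlap. Utp18 was lowest in knockout library 2, at 5.29 FPKM against 6.47 to 7.31 FPKM in the others. Tbl3 shares 37.3% of its exon bases with Noxo1 on the opposite strand, so its value is uncertain where strand was not used in counting, although Noxo1 was listed at only 1.03 to 1.65 FPKM. The MPP10 complex (Mphosph10, Imp3 and Imp4), which pairs the processome's guide RNA with the precursor, had log2 fold changes of -0.01, 0.02 and -0.03. Imp3, 1 of the 3 most abundant small-subunit factors, had 20.89, 22.01 and 21.87 FPKM in the wild type and 22.2, 22.7 and 20.7 FPKM in the knockout. Rrp9, a protein of that small nucleolar RNA particle, had a log2 fold change of -0.04, with 83.2% of its variation between library numbers.

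Among the other processome factors, 8 of 12 had log2 fold changes above 0, with a median of 0.055. Utp14a, an activator of a processome helicase in yeast (chrX:48256934-48282450), had 6.29, 6.23 and 6.29 FPKM in the wild type and 6.78, 7.85 and 6.81 FPKM in the knockout. The groups did not overlap, the log2 fold change was 0.16 (SE 0.09) with a limma adjusted p of 0.80, and it was 0.10 without knockout library 2, its highest. Noc4l, a partner of an early nucleolar factor (chr5:110648419-110653382), had 10.0, 9.25 and 9.11 FPKM in the wild type and 11.7, 9.55 and 11.3 FPKM in the knockout. Knockout library 2 fell within the wild-type range. Nol6 and Utp3, the most abundant of the group beside Imp3, showed no separation. Nol6 had 31.6, 32.2 and 27.9 FPKM in the wild type and 32.6, 29.3 and 31.9 FPKM in the knockout. Utp3 had 18.68, 14.70 and 12.99 FPKM and 15.8, 14.2 and 14.7 FPKM, wild-type library 1 being the highest and wild-type library 3 the lowest. Bms1, a GTPase, and Rcl1, its partner, had log2 fold changes of 0.11 and -0.16, Krr1 and Dcaf13 had 0.08 each, and the helicase Ddx52 had -0.07. Utp20, Utp23 and Nol10 had -0.03, 0.04 and 0.07.

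The factors that act later, as the small-subunit precursor leaves the nucleolus and is finished in the cytoplasm, numbered 7 here, and the median of their log2 fold changes was -0.0043. Tsr1, a GTPase-like factor of the cytoplasmic precursor (chr11:74898080-74909340), had 8.02, 9.40 and 9.47 FPKM in the wild type and 9.93, 10.1 and 11.5 FPKM in the knockout. The groups did not overlap, and the log2 fold change was 0.21 (SE 0.10) with a limma adjusted p of 0.79. It was 0.14 without wild-type library 1, its lowest. In Tsr1, 32.3% of the exon bases overlap Srr, the serine racemase gene on the opposite strand, which had 26.3 to 36.8 FPKM in the wild type and 28.0 to 39.8 FPKM in the knockout, and the part of Srr reads in the Tsr1 value was not tested. Ltv1, needed for export-competent particles in yeast, had 7.80, 8.57 and 7.96 FPKM in the wild type and 7.62, 7.51 and 7.74 FPKM in the knockout. Those groups did not overlap, with a log2 fold change of -0.08. The atypical kinases Riok1 and Riok2 had 0.13 and 0.07, the nuclease Nob1, which makes the final cut, had -0.01, and Bysl and Rrp12 had -0.08 and -0.0043.

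The large-subunit factors divided evenly, with 6 of 12 above 0 and a median log2 fold change of 0.002. Gnl2, a nucleolar GTPase of the large-subunit precursor (chr4:125029989-125055382), had the largest log2 fold change of all members on log2(FPKM + 1). As a ratio of mean FPKM, knockout to wild type, Gnl2 was at 1.25, while Heatr1, at 0.757, was farther from 1 in fold. It had 28.8, 21.4 and 20.5 FPKM in wild-type libraries 1, 2 and 3 and 31.6, 28.6 and 28.1 FPKM in knockout libraries 1, 2 and 3. Wild-type libraries 2 and 3 were below every knockout library, and wild-type library 1 was not. The log2 fold change was 0.32 (SE 0.13; 95% confidence interval 0.0095 to 0.64), and the limma adjusted p was 0.79. The value was 0.47 without wild-type library 1 and 0.23 without wild-type library 3. Gnl3, nucleostemin, a related GTPase, was also highest in library 1 of each genotype, with 16.2, 11.5 and 12.1 FPKM in the wild type and 17.92, 15.03 and 12.78 FPKM in the knockout, and a log2 fold change of 0.19 (SE 0.16).

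Nmd3, the export adaptor of the large subunit (chr3:69722055-69749047), had 10.5, 10.1 and 8.97 FPKM in the wild type and 11.48, 11.04 and 10.79 FPKM in the knockout. The groups did not overlap, with a log2 fold change of 0.16 (SE 0.09) and a limma adjusted p of 0.80. The log2 fold change was 0.10 with wild-type library 3, its lowest, left out. Sbds, which helps to release an anti-association factor from the new large subunit, was the most abundant large-subunit factor. Its wild-type libraries had 47.4, 36.4 and 37.4 FPKM and its knockout libraries 39.2, 35.1 and 34.3 FPKM. Its highest value was wild-type library 1, and its log2 fold change was -0.15 (SE 0.12), or -0.03 without that library. The AAA ATPase Mdn1 and its substrate Nle1, which remodel the precursor, had -0.15 and 0.23. Nle1 (chr11:82900768-82908446) had 3.02, 4.26 and 3.43 FPKM in the wild type and 3.89, 4.67 and 4.44 FPKM in the knockout. Each knockout library exceeded the wild-type library of the same number, although the groups overlapped, and the log2 fold change was 0.14 without wild-type library 1 and 0.34 without wild-type library 2.

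The PeBoW complex of Pes1, Bop1 and Wdr12, needed for large-subunit RNA processing, had log2 fold changes of 0.03, 0.02 and -0.02. Bop1 had 15.5, 16.9 and 15.8 FPKM in the wild type and 14.61, 17.55 and 17.00 FPKM in the knockout. Ebna1bp2, an early factor, had 17.2, 15.9 and 15.5 FPKM in the wild type and 15.9, 14.6 and 14.2 FPKM in the knockout. Its log2 fold change was -0.11 (SE 0.09), lower in each same-numbered pair but with overlapping groups. Rrs1, a carrier of the large subunit's small RNA particle, had 7.74, 8.78 and 8.45 FPKM in the wild type and 7.68, 7.62 and 7.65 FPKM in the knockout, without overlap. Nop16 had a log2 fold change of -0.11 and was lowest in knockout library 2, at 8.91 FPKM against 10.2 to 11.7 FPKM in the others.

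Ncl and Npm1 are multifunctional nucleolar proteins, nucleolin binding the precursor RNA and nucleophosmin shaping the outer nucleolus. Ncl had 34.2, 29.6 and 30.2 FPKM in the wild type and 34.7, 33.3 and 33.6 FPKM in the knockout, with a log2 fold change of 0.11 (SE 0.09). Npm1 had 131, 105 and 102 FPKM in the wild type and 119, 102 and 99.04 FPKM in the knockout, with a log2 fold change of -0.07 (SE 0.13). For Npm1, library 1 was the highest of each genotype, and the genotypes overlapped. Npm1 has many processed copies in the mouse genome that can share reads with it, so its level is uncertain.

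All 3 genes of Pol I transcription had log2 fold changes above 0, with a median of 0.073. Ubtf, the factor that binds ribosomal DNA and recruits Pol I (chr11:102304560-102323649), had 25.4, 25.3 and 23.9 FPKM in the wild type and 26.3, 28.4 and 27.6 FPKM in the knockout. The groups did not overlap, and the log2 fold change was 0.14 (SE 0.08) with a limma adjusted p of 0.80. The largest Pol I subunit, Polr1a, had 7.11, 5.42 and 5.53 FPKM in the wild type and 6.65, 5.72 and 5.69 FPKM in the knockout. Library 1 was the highest of each genotype, and the log2 fold change was 0.0055 (SE 0.12). Polr1b, the second subunit, had 5.10, 5.78 and 5.56 FPKM in the wild type and 5.99, 5.78 and 5.67 FPKM in the knockout, with a log2 fold change of 0.07 (SE 0.09). Polr1a moved below 0 when wild-type library 2 or 3 or knockout library 1 was left out.

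**Figure D4:**
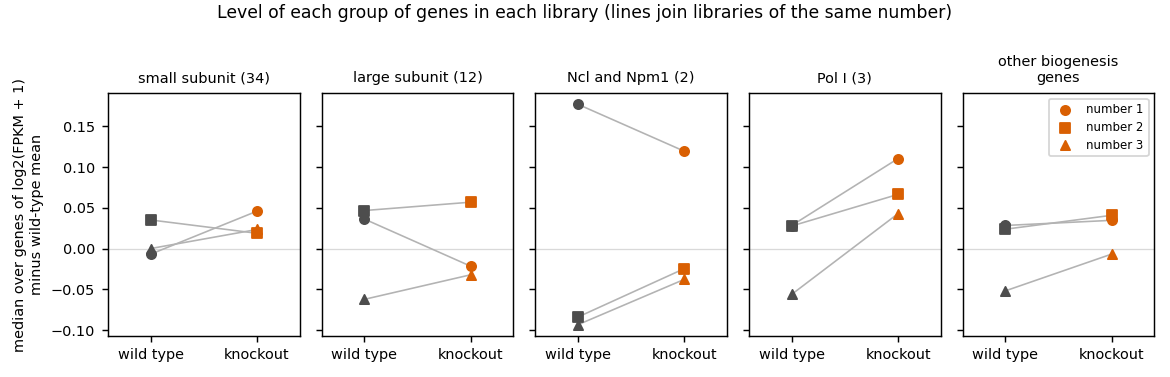
Median over genes of log2(FPKM + 1) minus the wild-type mean for each role group and for 106 other ribosome biogenesis genes, 1 point per library, with lines joining libraries of the same number; shape gives the number. The small-subunit medians span -0.0068 to 0.046, while library 1 stands highest for Ncl and Npm1 in both genotypes, at 0.18 and 0.12.

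Library 1 was compared with libraries 2 and 3 in each genotype, a comparison chosen after seeing the data. It was higher in both genotypes for 22 members, lower in both for 14 and split for 15, or 29.4% split against 32.9% of all genes tested. The difference of library 1 from the mean of libraries 2 and 3 correlated between the wild type and the knockout across the 51 members (Pearson 0.74, Spearman 0.70), where it did so across all 12885 genes tested with a Pearson correlation of 0.49. Members share the libraries, so these are descriptions. For numbers 2 and 3 the correlation of deviations between genotypes was 0.25 and 0.53 across members, against 0.41 and 0.54 over all genes tested. Across members wild-type library 2 correlated with knockout library 3 at 0.21, close to its 0.25 with knockout library 2. When each member's variation on the log2(FPKM + 1) scale was divided, the median share between library numbers was 40.3% and that between genotypes 21.0%, against 55.2% and 14.6% over all genes tested. The median share left over was 16.2% in members and 18.7% over all genes tested. Library number has 2 of the 5 degrees of freedom and genotype 1, so variation spread evenly would give mean shares of 40% and 20%. A median over genes need not equal such a mean, so the medians above cannot be read against it.

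Members at one end were high in library 1, and those at the other end were low. Gnl3 was higher in library 1 by 0.43 in the wild type and 0.35 in the knockout, and Npm1 by 0.35 and 0.25, as log2 differences. Gnl2, the member at an unadjusted limma p under 0.05, was higher by 0.44 and 0.15, Sbds by 0.35 and 0.17, and Utp3 by 0.41 and 0.12. Their coding lengths, in the order named, are 1614, 823.5 (median of 2 transcripts), 2184, 750 and 1407 bases. At the low end, Utp20 had -0.48 and -0.26, Rrp12 had -0.42 and -0.24, Heatr1 had -0.35 and -0.32, and Mdn1 had -0.37 and -0.08. These 4 at the low end have coding lengths of 8367, 3885, 6429 and 16746 bases. Length did not mark the ends alone, since Polr1a, with 5151 coding bases, was high in library 1 (0.32 and 0.19) and Nle1, with 1455, was low (-0.26 and -0.18). The blood markers were lowest in library 1 of each genotype (39.9 and 7.90 FPKM, against 374 to 2283 FPKM in the other 4 libraries), and their part in this pattern was not tested. Across the 51 members the library 1 difference, averaged over genotypes, had a Spearman correlation of -0.33 with coding length, against -0.16 over 12836 genes with a known coding length. Among the 17 members with the longest coding sequences, 2196 to 16746 bases, 6 were higher in library 1 in the wild type and 6 in the knockout. Among the 17 with the shortest, 534 to 1425 bases, those counts were 9 and 12, and among the 17 between them, 1455 to 2184 bases, they were 11 and 15, so the counts did not fall steadily with length. The log2 fold change between genotypes had a Spearman correlation with coding length of 0.21 across members and 0.20 across all genes. Its Pearson correlation with log2 coding length was -0.0040 across members and 0.17 across all genes.

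**Figure D5:**
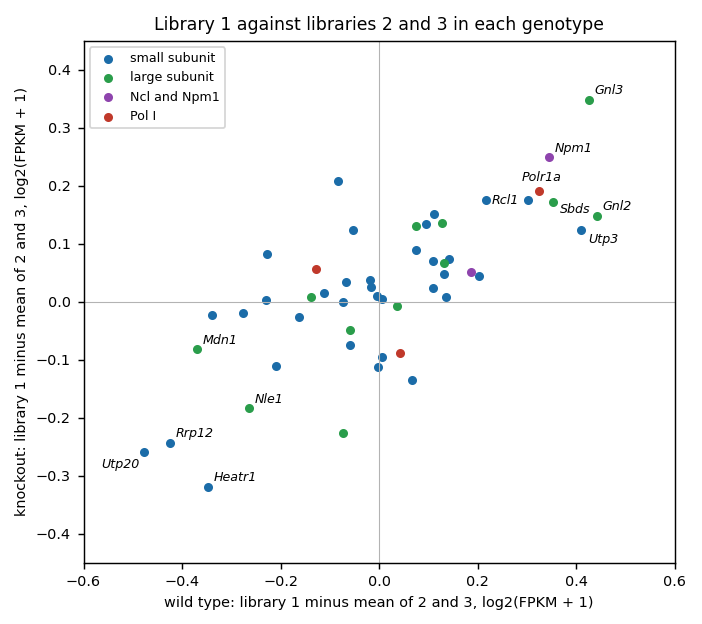
Difference of library 1 from the mean of libraries 2 and 3 on log2(FPKM + 1), wild type on the horizontal and knockout on the vertical axis, 1 point per member coloured by role. Gnl3 and Npm1 lie at the upper right and Utp20, Rrp12 and Heatr1 at the lower left, while 15 of the 51 members differ in direction between the genotypes.

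Of 106 further ribosome biogenesis genes, listed by role, 66, or 62.3%, had log2 fold changes above 0, against 49.1% of all genes tested. Their median was 0.025, 1 had an unadjusted p under 0.05, and 0 passed adjustment in limma. Their groups did not overlap in 10, or 9.43%, against 17.6% of members and 11.9% of all genes tested, with 8 higher and 2 lower. The direction was the same in all 3 pairs for 36 of the 106, against 26 of the 51 members and 40% of all genes tested. The median shares of variation were 58.3% for library number and 11.7% for genotype. The 48 other large-subunit factors had a median of 0.043, with 34 above 0, but leaving out wild-type library 3 brought that median to -0.00089, and leaving out knockout library 1 to 0.0032. Pelp1, a scaffold of the large-subunit RNA processing complex, had 12.5, 12.2 and 11.5 FPKM in the wild type and 14.65, 13.45 and 13.73 FPKM in the knockout, without overlap (limma log2 fold change 0.19, SE 0.08, adjusted p 0.79). Nip7 had a log2 fold change of 0.23 (SE 0.10) and likewise no overlap. The 20 other small-subunit factors had a median of 0.033, and the kinase Riok3 and the helicase Ddx49 had 0.22 and 0.23, both without overlap. The 16 other Pol I genes had a median of -0.017, with 9 of 16 below 0. Taf1d and Baz2a, which had the lowest unadjusted p, were at 0.23 and 0.16, whereas Polr1c was at -0.17 and Tcof1 at -0.14, the latter lower without overlap. The 8 small nucleolar RNA particle proteins had a median of -0.029, with Nhp2 and Nop10, partners in one particle, at 0.20 and -0.22. The 14 exosome and trimming genes had a median of 0.029, with Mphosph6 and Exosc10 at 0.22 and 0.18. These small medians changed sign in single omissions, the other small-subunit factors to -0.0066 without knockout library 1, Pol I to 0.021 without knockout library 2, the particle proteins to 0.0091 without wild-type library 2 and the exosome genes to -0.020 without wild-type library 3.

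Genes known to respond to or drive ribosome assembly were also read. Myc, a transcription factor that raises the expression of assembly factors, had 2.93, 2.46 and 2.52 FPKM in the wild type and 2.75, 2.57 and 2.66 FPKM in the knockout, with a log2 fold change of 0.011 (SE 0.11). Trp53, whose protein is stabilised when ribosome assembly fails, had a log2 fold change of 0.015 (SE 0.10), and its regulator Mdm2 had -0.06 (SE 0.08). These values are of messenger RNA, and protein levels were not read here. The p53 target Cdkn1a had 72.9, 23.9 and 16.4 FPKM in the wild type and 50.2, 70.7 and 15.7 FPKM in the knockout, a spread within each genotype larger than the difference between them. Ccng1, another p53 target, had 21.2, 22.7 and 29.9 FPKM in the wild type and 18.99, 19.80 and 20.04 FPKM in the knockout. Its groups did not overlap, with a log2 fold change of -0.30 (SE 0.13), and it did not pass adjustment. Max, Bax, Mycn and Phlda3 had 0.04, -0.06, -0.33 and -0.45, with overlapping groups. Of these 9 Myc and p53 genes, 4 had log2 fold changes above 0 and 5 below. Only Ccng1 was without overlap, 11.1% of the list against 11.9% of all genes tested. Members with an E-box near the start site had a median log2 fold change of 0.028 (11 genes), and the other 28 with a known promoter had 0.037. Of the 11, Nmd3, Nol11 and Tsr1 were higher in the knockout without overlap, and Ltv1 was lower. Over all genes tested 5.48% were higher and 6.43% lower without overlap. Among the 39 members with a known promoter, those counts were 5 and 2. Of the 4 whose sequence is printed above, Imp4 and Utp18 had overlapping groups.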

How the data were processed

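The deposited table gives 1 FPKM value, written with 2 decimals, for each gene and library. Per the submitters' processing notes the authors used Bowtie2, RSEM and the mm10 build to make these FPKM values. The sources used here give no version, annotation release, strand setting or depth, so no interval from counts can be had. Libraries were matched to genotype and number by their titles.

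The 12885 of 18491 genes that averaged 1 FPKM or more across the 6 libraries were fitted on log2(FPKM + 1) with limma 3.58.1 (R 4.3.3; lmFit, eBayes with trend and robust prior), 2-sided, with Benjamini-Hochberg adjustment over all of them at 0.05. Fold changes on this scale understate the change of low genes. The script was tested on simulated data. Tables and figures used Python 3.11.15, pandas 2.3.3, numpy 2.4.6, SciPy 1.17.1 and matplotlib 3.10.9. Coding lengths came from the GRCm38 annotation and promoters from RefSeq.

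The members, role groups and other lists were chosen with earlier results of these data known, so they were described by counts and medians and given no test. Named members were those with the lowest unadjusted p in each role group (5 small-subunit, 4 large-subunit, 2 nucleolar, 3 Pol I). The most abundant 3 of each subunit were also named, and up to 2 from each other ribosome biogenesis list. All 9 Myc and p53 genes were named. The further genes named (Wdr75, Utp6, Utp18, Ltv1, Rrs1, Gnl3, Nop16, Polr1c and Tcof1) and those of the library 1 comparison were chosen after their values were seen, as was that comparison.

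The titles' numbers were taken to pair libraries because same-numbered libraries deviated together (correlations of 0.485, 0.413 and 0.539 over all genes tested, against -0.326 to -0.103 for other combinations). Deviations from a genotype's mean cancel within that genotype, so positive same-number values push the other combinations to negative ones. The pairing was thus chosen from these data, and that contrast is no independent evidence for it. The labels do not say what a number stands for. The 16 alternatives changed the pseudocount, filter, scaling, variance model, library weights or block, or left out 1 library.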

Additional observations from a re-analysis of the deposited data

How the results depend on the processing

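Over 58 results and 16 alternatives, 875 of 925 values kept their direction and their side of the threshold, 36 moved and 14 reversed. Genes called at an adjusted p under 0.05 numbered 0 in the fit reported and 1 with no filter (Hist2h2aa2), and leaving out 1 library gave 0 to 1, the 1 being Rps27rt without wild-type library 3. No member was called in any of them. Genes at an unadjusted p under 0.05 numbered 606 higher and 755 lower with array weights and 783 and 1059 with the replicate block, and leaving out 1 library gave 136 to 483 higher and 180 to 663 lower. Members at that level numbered 2 with no filter, a common sum, median ratio or quantile scaling, 0 without the trend and robust prior, 4 with array weights, 5 with the replicate block, and 0 to 2 without 1 library. Members without overlap numbered 12 to 22 without 1 library, where groups of 2 against 3 overlap less readily. The 22, without wild-type library 1, were 13 higher and 9 lower, against 13.3% and 13.5% of all genes tested. The 12, without wild-type library 2, were 8 higher and 4 lower, against 8.25% and 8.02%. The median log2 fold change of all members was 0.048 on a common sum and 0.010 to 0.052 without 1 library, and that of the small-subunit factors 0.054 and 0.028 to 0.051. Of Ncl and Npm1, 2 were above 0 with array weights and 1 to 2 without 1 library. With array weights Utp3, Bop1 and Npm1 reversed to 0.0014, -0.062 and 0.015. Without 1 library the log2 fold change ran from -0.029 to 0.079 for Nol6, -0.0079 to 0.057 for Imp3, -0.15 to 0.10 for Utp3, -0.028 to 0.097 for Bop1, -0.16 to 0.042 for Npm1 and -0.058 to 0.11 for Polr1a. Except where fewer libraries changed the overlap, the cause was not tested. The block changed no call at an adjusted p under 0.05. With 3 libraries a genotype and unknown depth, the median width of the members' 95% confidence intervals was 0.46 on the log2 scale.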
